A study of Mus musculus with 6 samples.

Results

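The 10 genes Ly6g, Retnlg, Lcn2, Ltf, Camp, Ngp, Mmp8, Mmp9, Cd177 and Chil3 encode secondary and tertiary granule proteins, secreted proteins and surface proteins of maturing neutrophils. They were taken by symbol from the deposited table, which held all 10 among its 21515 genes. The RNA came from cultured bone marrow cells of C57BL/6 mice, all of which carried NUP98-NSD1, a leukaemia fusion of a nucleoporin and a histone methyltransferase, together with NRASG12D, an activated RAS protein. The tested cells carried a lentiviral vector with Cas9, a dTomato reporter and the T44 guide against Clec12a, an inhibitory lectin receptor of myeloid cells (labelled genotype NUP98:NSD1 Clec12a knockout, replicates 1, 4 and 5). Control cells carried the same vector with a guide against the bacterial gene lacZ (labelled NUP98:NSD1 Clec12a wt, replicates 6, 8 and 9). Cells of each group were sorted singly and expanded, so each of the 6 libraries stands for a clone, and 1 guide per group was profiled. The labels do not say whether the clones came from separate infections, so n = 3 and the p-values speak of the spread between clones only. For all cells the labels give 48 hours of stimulation, in 15% serum with 3 cytokines. These were 20 ng/mL of mouse stem cell factor, 10 ng/mL of human interleukin-6 and 6 ng/mL of mouse interleukin-3.

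Neutrophils make their granules in waves. Primary granule proteins such as elastase are made by promyelocytes, secondary (specific) granule proteins such as lactoferrin by myelocytes, tertiary (gelatinase) granule proteins after that, and surface proteins such as Ly6G appear as the cell matures. The transcription factor C/EBP epsilon drives many secondary granule genes, and the growth factor G-CSF, which the labels do not list among those added, promotes the last steps.

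Expression is given as FPKM, fragments scaled to transcript length and to the mapped fragments of the library, so that levels can be compared between genes. FPKM totals were 590211 to 699113 in knockout libraries and 534440 to 554534 in controls, without overlap; values scaled to equal totals are given with the alternatives. Depth, estimated from the spacing of low values, was about 33500000 to 60700000 fragments per library. Clec12a itself stood at 170, 129 and 94.5 FPKM in the knockout clones, against 157, 246 and 280 FPKM in the control clones, with overlapping groups; an edit in an exon need not lower this level. Lineage markers were checked as lists. None of 9 lymphoid markers except Nkg7, which neutrophil precursors also express, reached 1 FPKM in any library. Of 9 basophil and mast cell markers 8 stayed below 1 FPKM, and Cpa3, Fcer1a, Cma1 and Tpsb2 were listed at 0 throughout. The remaining marker, Mcpt8, was above 1 FPKM in every library. It was at 1.91, 3.08 and 2.48 FPKM in the knockout clones, against 5.51, 12.0 and 1.97 FPKM in the control clones.

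The stretches of DNA before the start of 5 of these genes are shown, from the 6 for which a searched letter pattern was found. The stretch of Mmp8, the other of the 6, is not printed. RefSeq promoter windows (GRCm38.p6) were matched by symbol for 9 of 10 genes; Mmp9 had no entry. Windows of 250 bases before the start were searched on both strands for TTGCNNAA, a core of the C/EBP motif, and printed up to the first base that GENCODE M21 annotates as untranslated region. Capitals mark matches, on either strand. The start RefSeq gives for Lcn2 lies inside the gene span that GENCODE gives, so its window does too.
Ly6g, chr15:75155011-75155239, plus strand: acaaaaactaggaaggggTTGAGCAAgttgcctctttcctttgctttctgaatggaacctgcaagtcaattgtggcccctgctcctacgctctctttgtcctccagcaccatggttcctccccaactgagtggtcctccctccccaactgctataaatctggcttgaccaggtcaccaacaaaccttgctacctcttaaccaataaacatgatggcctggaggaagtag
Retnlg, chr16:48872358-48872607, plus strand: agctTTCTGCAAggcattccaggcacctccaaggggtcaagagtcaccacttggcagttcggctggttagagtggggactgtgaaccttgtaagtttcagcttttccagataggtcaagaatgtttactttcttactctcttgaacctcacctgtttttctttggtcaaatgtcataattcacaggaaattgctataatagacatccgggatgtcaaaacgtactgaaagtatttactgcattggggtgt
Lcn2, chr2:32387798-32387989, minus strand: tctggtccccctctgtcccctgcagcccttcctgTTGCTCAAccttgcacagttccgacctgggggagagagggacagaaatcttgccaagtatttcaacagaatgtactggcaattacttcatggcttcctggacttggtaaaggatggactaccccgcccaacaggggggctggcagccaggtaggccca
Ltf, chr9:111019042-111019270, plus strand: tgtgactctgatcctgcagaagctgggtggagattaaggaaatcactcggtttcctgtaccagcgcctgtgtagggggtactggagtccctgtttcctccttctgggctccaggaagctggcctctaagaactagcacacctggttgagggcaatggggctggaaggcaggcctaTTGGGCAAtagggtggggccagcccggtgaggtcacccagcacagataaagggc
Ngp, chr9:110419558-110419746, plus strand: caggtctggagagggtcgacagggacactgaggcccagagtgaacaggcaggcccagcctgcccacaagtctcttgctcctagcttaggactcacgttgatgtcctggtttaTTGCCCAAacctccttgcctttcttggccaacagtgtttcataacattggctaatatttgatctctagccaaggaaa
The C/EBP letters were found in 6 of the 10 windows of these 9 genes (Ly6g has 2), against 9.56% of 32851 windows of all genes. Counted by gene they were found for 6 of 9 (Ly6g, Retnlg, Lcn2, Ltf, Ngp and Mmp8), against 10.8% of all genes with a window. Ngp held 2 matches, of which the second lies past the printed part, and Ly6g held its match in the more upstream of its 2 windows. An NF-kB pattern (GGG, any 3 bases, then TTCC) was in none of the 10 windows and in 4.65% of all windows. A match is a description of letters and no evidence of binding.

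In knockout cells 3 of the 10 genes rose, and the other 7 did not pass the test or were below the filter. Those that rose were the mature neutrophil surface gene Ly6g, the secreted resistin-like gene Retnlg and Lcn2, a lipocalin gene of the secondary granules. The secondary granule genes Ltf and Ngp, the collagenase gene Mmp8, the gelatinase gene Mmp9, the surface gene Cd177 and the chitinase-like gene Chil3 did not pass, and the cathelicidin gene Camp was too low to be tested. Genes with at least 1 FPKM in at least 3 libraries were kept, 9830 in all, and log2(FPKM + 1) was tested with limma with Benjamini-Hochberg adjustment over all 9830. A gene is said to have risen or fallen where the adjusted p was under 0.05, and fold changes are on that log2 scale, knockout over control, which understates changes of low genes. Over all genes tested 1.38% rose, 0.519% fell and 1.90% changed, against 3 rises and 0 falls among the 9 genes of this group that were tested. The 3 passed the filter through the knockout libraries alone, as did 8 of the 10; Retnlg would not have passed it through the controls alone. Without the filter 0 of the 10 genes passed, beside 0.114% of all genes, and with array weights 6 passed, beside 42.3% of all genes.

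**Figure D1:**
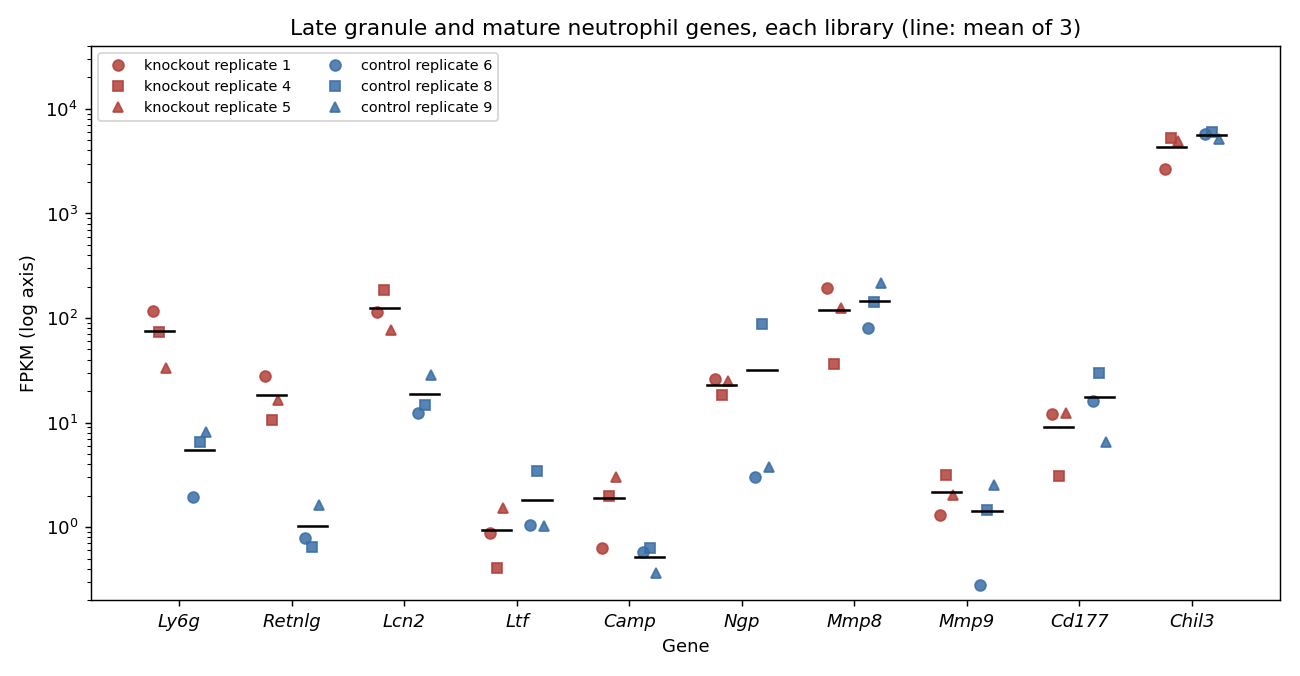
FPKM of each gene in each library on a log axis, with knockout libraries left of controls and a line at the mean of 3. Ly6g, Retnlg and Lcn2 separate the groups, while Chil3 stands at 2688 FPKM or more in every library and Ltf and Camp at 3.42 FPKM or less.

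Ly6g encodes a GPI-anchored surface protein by which mature mouse neutrophils are recognised (chromosome 15, 75155240 to 75159126, plus strand, GRCm38). It was at 118, 74.0 and 33.3 FPKM in knockout replicates 1, 4 and 5, against 1.92, 6.48 and 8.05 FPKM in control replicates 6, 8 and 9. The groups did not overlap, and the lowest knockout library was 4.14 times the highest control. Every knockout library lay above every control for 3 of the 10 genes and for 14.5% of all tested genes, and 36.3% of all tested genes did not overlap in either direction. The group means were 74.9 ± 42.1 FPKM in knockout and 5.49 ± 3.18 FPKM in control cells (SD, n = 3 each), with a log2 fold change of 3.53 (SE 0.52, 95% interval 2.34 to 4.72, limma adjusted p = 0.0215). In bulk RNA, more cells that express a gene and more RNA per cell cannot be told apart. Within the knockout group the level ranged 3.52-fold, and within the controls 4.19-fold. Without knockout replicate 1 or 4, or without control replicate 8, and so with fewer samples, Ly6g no longer passed (limma adjusted p = 0.0668, 0.0943 and 0.0675, with log2 fold changes of 3.12, 3.45 and 3.71). In these fits 0.376%, 0.203% and 0.254% of all genes passed.

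Ly6g lies in a cluster of related Ly6 genes, and the other members of that cluster did not pass. Ly6c2, a surface protein of monocytes and immature myeloid cells, was at 2069, 2677 and 2610 FPKM in the knockout clones, against 1140, 1924 and 1561 FPKM in the control clones (log2 fold change 0.69, limma adjusted p = 0.165). Its relative Ly6c1 was at 535 ± 76.8 FPKM in knockout and 345 ± 86.8 FPKM in control cells (adjusted p = 0.136). Every knockout library exceeded every control for both. The stem cell antigen gene Ly6a (adjusted p = 0.245) and the broadly expressed Ly6e (adjusted p = 0.495) had overlapping groups. Of 17 cluster genes, 5 were tested, 0 passed (2 higher and 0 lower at an unadjusted p under 0.05), and all 5 had positive log2 fold changes, with a median of 0.65 against -0.06 over all genes. The ratio of Ly6g to Ly6c2 was 0.0568, 0.0276 and 0.0128 in knockout libraries and 0.00169, 0.00337 and 0.00516 in controls. On the log2(FPKM + 1) scale the difference was 2.84 with an exact two-sided permutation p of 0.1, the smallest that 3 against 3 libraries allow; this ratio and those to Retnlb and Chil4 were chosen after the values were seen. Of the 892 windows of 50 bases in the Ly6g transcript, 0.448% occurred in the transcripts of another gene, and Ly6c2 and Ly6c1 share 12.6% of the windows of Ly6c2, so these 2 are the less certain.

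Retnlg encodes a resistin-like protein secreted by neutrophils (chromosome 16, 48872621 to 48874496, plus strand). It was at 27.7, 10.7 and 16.5 FPKM in knockout replicates 1, 4 and 5, against 0.780, 0.641 and 1.64 FPKM in control replicates 6, 8 and 9. The groups did not overlap, and the lowest knockout library was 6.48 times the highest control. The means were 18.3 ± 8.64 FPKM in knockout and 1.02 ± 0.544 FPKM in control cells (SD, n = 3 each), with a log2 fold change of 3.19 (SE 0.35, 95% interval 2.39 to 3.99, limma adjusted p = 0.00795). The control values rest on few reads: an estimated 814, 322 and 328 fragments lay behind the knockout values, and 28, 18 and 44 behind those of controls 6, 8 and 9. Retnlg passed with each library left out in turn (log2 fold change 2.85 to 3.50). In these fits the filter on low values was still set on all libraries. Retnlg met that filter through the knockout libraries and not through the controls alone, so a difference was built into its being tested. Without the filter it did not pass (limma adjusted p = 0.0636), where 0.114% of all genes passed.

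Among its relatives, Retnlb, a resistin-like gene known from the gut, was at 3.15, 6.22 and 3.45 FPKM in the knockout clones, against 1.02, 0.105 and 1.60 FPKM in the control clones. Its groups did not overlap, but it did not pass (log2 fold change 1.51, limma adjusted p = 0.0652). Retnlb is a neighbour of Retnlg, and none of their 50-base windows occurred in another gene. The ratio of Retnlg to Retnlb was 8.79, 1.71 and 4.79 in knockout libraries and 0.768, 6.12 and 1.03 in controls, which overlap. On the log2(FPKM + 1) scale the groups did not overlap and the difference was 1.68 (exact permutation p = 0.1). Retnla, a gene of alternatively activated macrophages, and Retn, which encodes resistin, did not exceed 0.277 FPKM in any library.

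Lcn2 encodes lipocalin 2, a secondary granule protein that binds bacterial iron carriers and is also induced by inflammatory signals in many cells (chromosome 2, 32384633 to 32388252, minus strand). It was at 115, 186 and 77.5 FPKM in knockout replicates 1, 4 and 5, against 12.5, 14.7 and 28.6 FPKM in control replicates 6, 8 and 9. The lowest knockout library was 2.71 times the highest control. The means were 126 ± 55.0 FPKM in knockout and 18.6 ± 8.76 FPKM in control cells (SD, n = 3 each), with a log2 fold change of 2.69 (SE 0.38, 95% interval 1.83 to 3.55, limma adjusted p = 0.0204). Without knockout replicate 1 or 4, or without control replicate 8, it did not pass (limma adjusted p = 0.0651, 0.0715 and 0.0816, with log2 fold changes of 2.71, 2.37 and 2.58). The order of clones differed from that of Ly6g: knockout replicate 4 was the highest for Lcn2 and knockout replicate 1 for Ly6g and Retnlg. Of its receptor genes, Slc22a17 and Lrp2 did not exceed 0.0441 FPKM in any library. Another lipocalin gene, Ptgds, which encodes a prostaglandin D synthase, rose: it was at 1.70, 4.77 and 2.78 FPKM in the knockout clones, against 0.0471, 0 and 0.160 FPKM in the control clones (log2 fold change 1.87, SE 0.28, limma adjusted p = 0.0215). It was the 1 that passed among 7 tested relatives of the 10 genes, and it met the filter on low values through the knockout libraries alone, so a difference was built into its being tested.

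**Figure D2:**
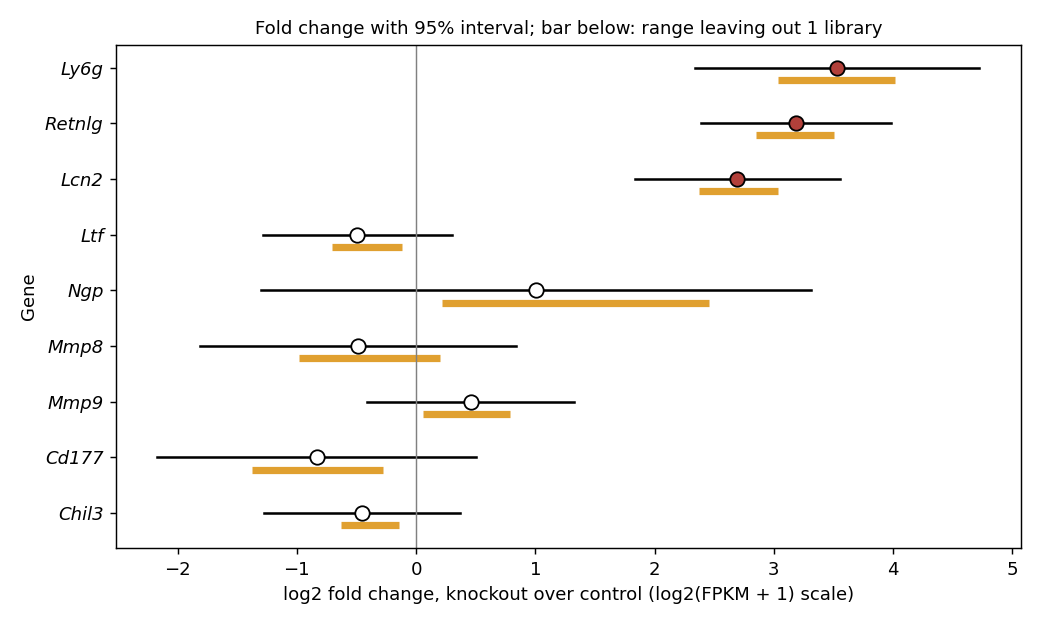
Log2 fold change of the 9 tested genes, knockout over control, with the limma 95% interval as a line, filled points for adjusted p under 0.05, and an orange bar for the range when each library is left out in turn. The intervals of Ly6g, Retnlg and Lcn2 lie above 1.8, and those of the other 6 include 0.

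None of the genes tested around the 3 that rose passed. Of all tested genes 1.90% passed, so a count near 0 among so few neighbours says little about them. Within 1 Mb of Ly6g, 20 other genes were tested, and their median log2 fold change was 0.07, with Ly6a the highest at 0.92. Within 1 Mb of Retnlg 5 were tested, with a median of 0.09 and Retnlb the highest. Within 1 Mb of Lcn2 31 were tested, with a median of -0.04, and Ass1, an enzyme of arginine synthesis, was the highest at 2.70 without passing. Around the 7 others, the medians were -0.17 to -0.0049, and 2 genes passed, both near Cd177: the gene model Gm9844 and Plaur, the urokinase receptor gene.

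**Figure D3:**
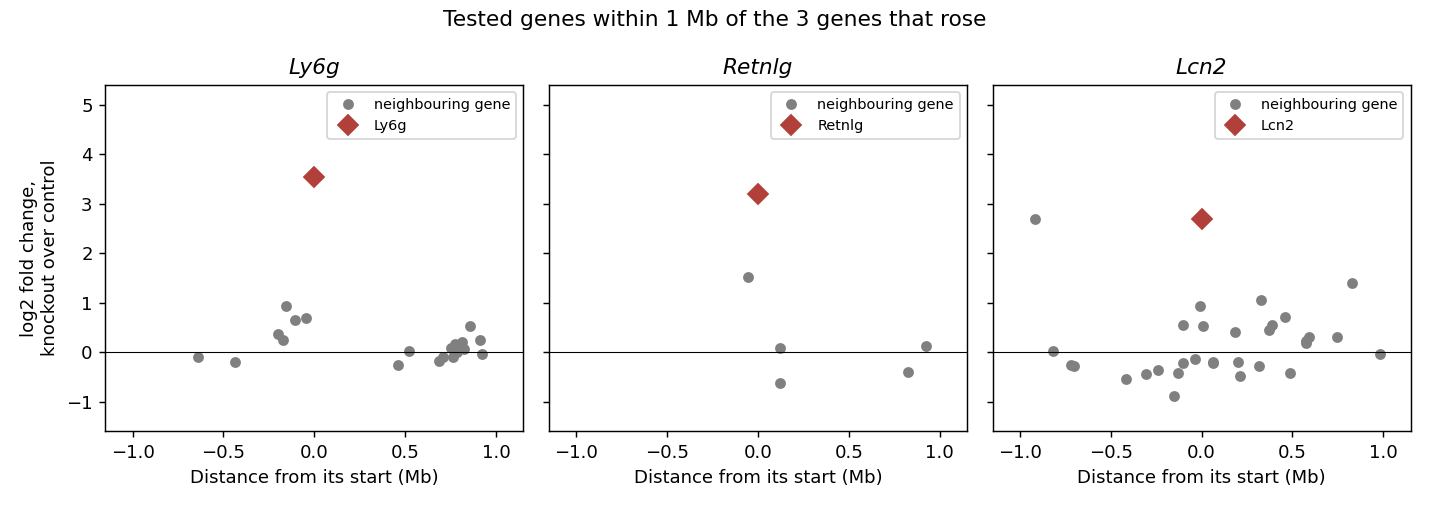
Log2 fold change of every tested gene within 1 Mb of Ly6g, Retnlg and Lcn2 against its distance from the start of that gene in Mb. The diamonds at 3.53, 3.19 and 2.69 are the 3 genes themselves, and the highest grey points are Ly6a at 0.92, Retnlb at 1.51 and Ass1 at 2.70.

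Of the secondary granule genes, Lcn2 rose as given above, while Ltf and Camp stayed low and Ngp varied between clones. Ltf encodes lactoferrin, an iron-binding protein that is the classical marker of these granules (chromosome 9, 111019271 to 111042767, plus strand). It was at 0.870, 0.411 and 1.52 FPKM in knockout replicates 1, 4 and 5, against 1.06, 3.42 and 1.03 FPKM in control replicates 6, 8 and 9. The groups overlapped, no library exceeded 3.42 FPKM, and the test gave a log2 fold change of -0.49 (SE 0.35, 95% interval -1.28 to 0.30, limma adjusted p = 0.367). Camp encodes the mouse cathelicidin, the precursor of an antimicrobial peptide (chromosome 9, 109847379 to 109849617, minus strand). It was at 0.627, 2.01 and 3.03 FPKM in the knockout clones, against 0.580, 0.629 and 0.361 FPKM in the control clones. Only 2 libraries, both knockout, reached 1 FPKM, so Camp was not in the main test. An estimated 24, 77 and 77 fragments lay behind the knockout values and 27, 22 and 12 behind the controls, and the exact permutation test gave p = 0.2. Tested without the filter it had a log2 fold change of 0.83 (limma adjusted p = 0.284).

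Ngp encodes neutrophilic granule protein, a relative of the cathelicidins (chromosome 9, 110419747 to 110423012, plus strand), and 1 control clone set its comparison. It was at 26.0, 18.4 and 25.0 FPKM in knockout replicates 1, 4 and 5, against 2.99, 88.1 and 3.73 FPKM in control replicates 6, 8 and 9. The knockout clones differed by 1.42-fold and the controls by 29.5-fold, with control replicate 8 above all knockout libraries and the other controls below them. Its log2 fold change of 1.01 did not pass (SE 1.01, 95% interval -1.30 to 3.31, limma adjusted p = 0.524), while the means were 23.1 ± 4.15 FPKM in knockout and 31.6 ± 48.9 FPKM in control cells, so mean and log2 fold change differ in direction. Without control replicate 8 the log2 fold change was 2.46 and passed (limma adjusted p = 0.0235), where 0.254% of all genes passed. Without control replicate 6 it was 0.22 and without control replicate 9 it was 0.34, and neither passed (limma adjusted p = 0.913 and 0.865). Leaving out control replicate 8 ended the calls of Ly6g and Lcn2, so the members that passed were then Retnlg and Ngp.

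The metalloproteinase genes did not pass. Mmp8, which encodes neutrophil collagenase of the secondary granules (chromosome 9, 7558456 to 7568485, plus strand), was at 194, 36.6 and 126 FPKM in the knockout clones, against 80.7, 142 and 218 FPKM in the control clones. Knockout replicate 4 was the lowest of all 6 and control replicate 9 the highest. It had a log2 fold change of -0.49 (SE 0.58, 95% interval -1.81 to 0.84, limma adjusted p = 0.596), and of 0.20 without knockout replicate 4. Mmp9, which encodes gelatinase B of the tertiary granules (chromosome 2, 164940780 to 164955850, plus strand), was at 1.30, 3.13 and 2.03 FPKM in the knockout clones, against 0.282, 1.46 and 2.53 FPKM in the control clones. The groups overlapped (log2 fold change 0.46, SE 0.38, 95% interval -0.41 to 1.32, limma adjusted p = 0.440). In every library Mmp8 thus stood above Mmp9 in FPKM. Of the metalloproteinase inhibitor genes, Timp1, Timp3 and Timp4 did not exceed 0.0993 FPKM, and Timp2, below the filter, was at 0.881, 2.28 and 0.561 FPKM in the knockout clones, against 0.180, 0.225 and 0.452 FPKM in the control clones.

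Cd177 encodes a neutrophil surface protein that in human cells presents proteinase 3 (chromosome 7, 24743983 to 24760311, minus strand). It was at 12.0, 3.12 and 12.2 FPKM in knockout replicates 1, 4 and 5, against 16.2, 30.1 and 6.50 FPKM in control replicates 6, 8 and 9. The groups overlapped, with a log2 fold change of -0.83 (SE 0.59, 95% interval -2.17 to 0.50, limma adjusted p = 0.364). The gene of its partner, Prtn3, was at 1510 ± 707 FPKM in knockout and 1241 ± 392 FPKM in control cells (adjusted p = 0.710). Of 8 tested genes of partners and inhibitors of these proteins, Prtn3 among them, 0 passed, with 1 higher and 1 lower at an unadjusted p under 0.05. Of the 50-base windows of Cd177, 5.76% occurred in other genes.

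Chil3 encodes Ym1, a chitinase-like protein of mouse neutrophil precursors and alternatively activated macrophages (chromosome 3, 106147554 to 106167564, minus strand). It was at 2688, 5277 and 4938 FPKM in knockout replicates 1, 4 and 5, against 5715, 6042 and 5183 FPKM in control replicates 6, 8 and 9. By FPKM it ranked 14, 4 and 4 among all 21515 genes in the knockout libraries and 2, 2 and 3 in the controls. Knockout replicate 1 was the lowest, and knockout replicate 4 overlapped the controls. With values scaled to equal totals every knockout library lay below every control, and 40.4% of all tested genes then did not overlap in either direction. The means were 4301 ± 1407 FPKM in knockout and 5647 ± 433 FPKM in control cells (log2 fold change -0.45, SE 0.36, 95% interval -1.27 to 0.37, limma adjusted p = 0.423). Its close relative Chil4 was at 137, 246 and 276 FPKM in the knockout clones, against 326, 312 and 274 FPKM in the control clones (adjusted p = 0.240). The Chil3 to Chil4 ratio was nearly constant, at 19.7, 21.5 and 17.9 in knockout libraries and 17.5, 19.3 and 18.9 in controls (difference 0.08 on the log2(FPKM + 1) scale, exact permutation p = 0.4). Of the 50-base windows of Chil3, 29.4% occurred in other genes and 18.5% in Chil4, so reads may have been split or shared between them and the Chil4 level is uncertain.

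**Figure D4:**
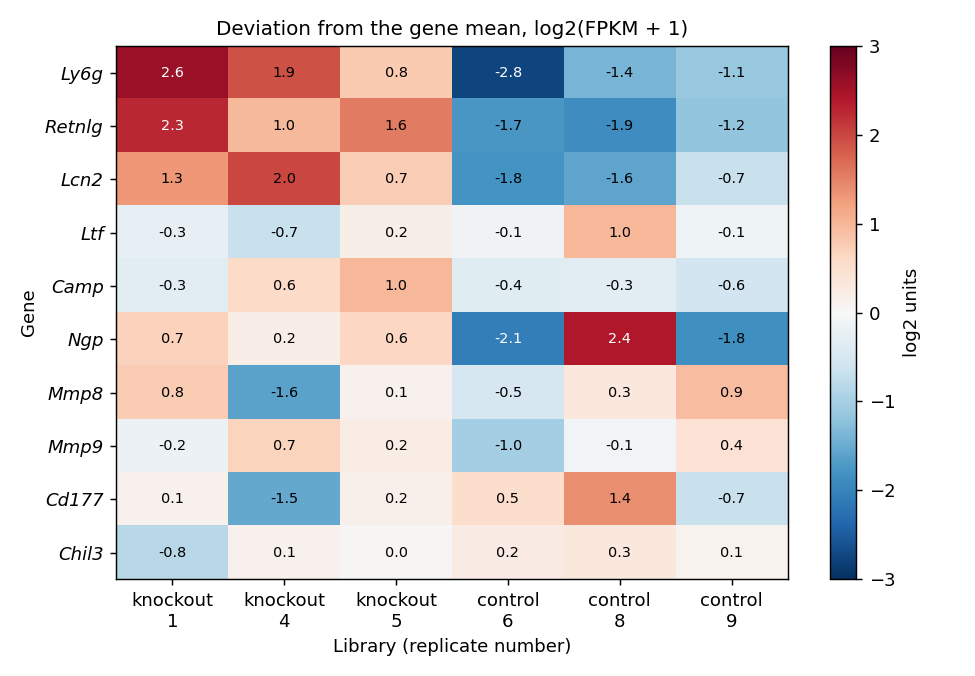
Deviation of each library from the gene's mean over 6 libraries, in log2(FPKM + 1) units, with knockout libraries on the left. Ly6g, Retnlg and Lcn2 are positive in all 3 knockout and negative in all 3 control libraries, and Ngp runs from 2.40 in control replicate 8 to -2.08 in control replicate 6.

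The clones did not keep 1 order over the 10 genes. Control replicate 8 was the highest of all 6 libraries for 4 of them (Ltf, Ngp, Cd177 and Chil3) and the lowest for Retnlg. Control replicate 6 was the lowest for 4 (Ly6g, Lcn2, Ngp and Mmp9) and the highest for none. Knockout replicate 4 was the lowest for Ltf, Mmp8 and Cd177 and the highest for Lcn2 and Mmp9. For 7 of the 10 genes the groups overlapped.

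None of the other tested genes of late neutrophil maturation passed. Of 43 such genes, 42 were in the table and 34 were tested (Cyba was not analysed here). In limma 0 of the 34 rose and 0 fell, where 1.38% of all genes rose and 0.519% fell, so 0 is near the share over all genes. At an unadjusted p under 0.05, 12 were higher and 1 lower, where 12.04% of all genes were higher and 15.9% lower. Their log2 fold changes were positive for 27 and negative for 7, where 46.0% of all genes were positive, with a median of 0.58 against -0.06 over all genes. For 6 of the 34 every knockout library lay above every control, against 14.5% of all genes. The most abundant was the lysozyme gene Lyz2, at 4405 ± 637 FPKM in knockout and 5068 ± 3175 FPKM in control cells (adjusted p = 0.963). The calprotectin subunit gene S100a8 was at 2165 ± 599 FPKM in knockout and 2333 ± 1988 FPKM in control cells (adjusted p = 0.838), with control replicate 8 at 4604 FPKM. The protease inhibitor gene Slpi was at 2627 ± 1647 FPKM in knockout and 1133 ± 346 FPKM in control cells (adjusted p = 0.163).

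Among these were the stefin genes, which encode cystatin-type inhibitors of cathepsins. Stfa3 was at 522, 889 and 748 FPKM in the knockout clones, against 72.4, 265 and 326 FPKM in the control clones (log2 fold change 1.92, limma adjusted p = 0.0817). The genes that follow were chosen after their values were seen. Stfa2 was at 358, 377 and 148 FPKM in the knockout clones, against 4.45, 31.8 and 52.5 FPKM in the control clones (log2 fold change 3.68, adjusted p = 0.0513). The peptidoglycan recognition gene Pglyrp1, a secondary granule gene, was at 95.4, 144 and 52.8 FPKM in the knockout clones, against 6.41, 53.0 and 12.5 FPKM in the control clones (log2 fold change 2.38, adjusted p = 0.0846). Every knockout library exceeded every control for Stfa3 and Stfa2 but not for Pglyrp1, where control replicate 8 lay within the knockout range. Control replicate 8 also stood highest for S100a9, at 668 FPKM, and for Olfm4, a secondary granule gene below the filter, at 23.6 FPKM against 0.0909 to 2.01 FPKM in the 5 other libraries. The stefin gene Stfa1 had overlapping groups, at 126, 71.5 and 64.5 FPKM in the knockout clones, against 2.68, 97.7 and 62.3 FPKM in the control clones (adjusted p = 0.340). Stfa1 and Stfa2 share 26.9% and 15.9% of their 50-base windows with other genes, so their levels are uncertain. Of the 7 genes with a negative log2 fold change, the lowest were Il1r2, Cybb and Fpr1. They were at -1.33, -1.19 and -0.92 (limma adjusted p = 0.105, 0.181 and 0.318).

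**Figure D5:**
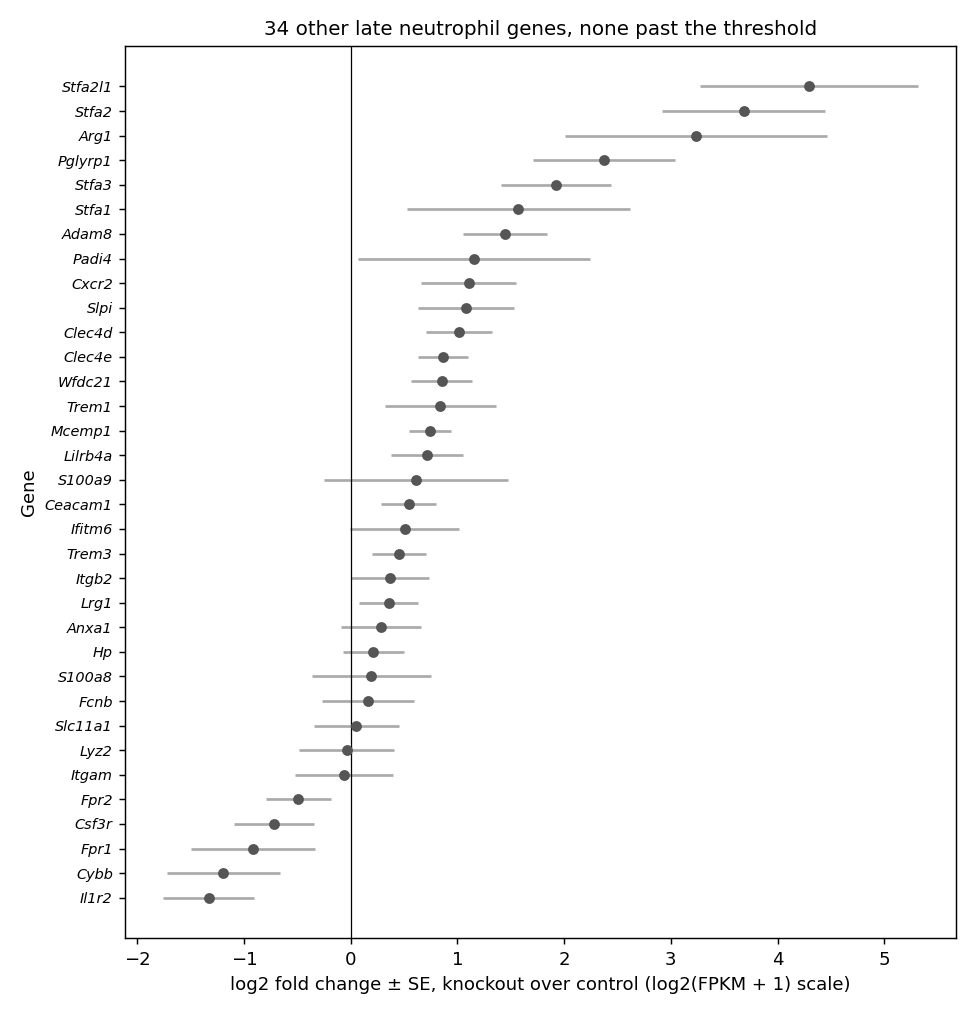
Log2 fold change ± SE, knockout over control, of the 34 other late neutrophil genes tested. Of these 27 lie above 0, with Stfa2l1 at 4.29 and Stfa2 at 3.68. None passed at an adjusted p of 0.05, beside 1.90% of all tested genes.

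Among genes that precede or regulate the late program, 1 passed. Of 13 tested primary granule genes 1 rose and 0 fell, with 2 higher and 2 lower at an unadjusted p under 0.05 and a median of -0.14. The 1 that rose was Cd63, a tetraspanin of granule membranes, at 6.68 ± 2.61 FPKM in knockout and 1.41 ± 0.490 FPKM in control cells (log2 fold change 1.64, limma adjusted p = 0.0398), which met the filter through the knockout libraries and not through the controls alone. The myeloperoxidase gene Mpo was at 0.289, 1.20 and 9.36 FPKM in the knockout clones, against 455, 737 and 10.2 FPKM in the control clones. Its groups did not overlap, with control replicate 9 close to knockout replicate 5, and it did not pass (log2 fold change -5.66, limma adjusted p = 0.0763). The 4 most abundant genes of that list were Elane, Prtn3, Ctsg and Srgn, and none of them passed. Their log2 fold changes were 0.89, 0.24, -0.14 and 1.05. Of 13 tested regulators of granulocyte formation 0 passed, with 2 higher and 2 lower at an unadjusted p under 0.05 and a median of 0.10. Cebpe, the gene of C/EBP epsilon, was at 99.2, 72.5 and 27.8 FPKM in the knockout clones, against 6.96, 47.2 and 37.8 FPKM in the control clones (log2 fold change 1.28, adjusted p = 0.251). Knockout replicate 5 lay within the control range for Cebpe, and control replicate 6 was the lowest, as it was for Ly6g and Lcn2. The PU.1 gene Spi1 was at 232 ± 27.4 FPKM in knockout and 218 ± 40.6 FPKM in control cells (adjusted p = 0.774). The signal transducer gene Stat3 was at 57.7, 26.6 and 45.1 FPKM in the knockout clones, against 73.6, 66.6 and 81.4 FPKM in the control clones, without overlap and without passing (log2 fold change -0.83, limma adjusted p = 0.113). Irf8 was not analysed here.

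Among the markers of other cells and states, 1 gene passed. Of 5 tested stem and progenitor markers 1 fell, Meis1, a HOX cofactor gene (log2 fold change -1.46, limma adjusted p = 0.0367), and the summed FPKM of that list was 166 to 254 in knockout libraries and 255 to 294 in controls. The largest part of that sum was Hoxa9, at 109 ± 18.9 FPKM in knockout and 169 ± 8.61 FPKM in control cells (adjusted p = 0.0950). Ly6a was the 1 of the 5 with a positive log2 fold change (0.92), and Cd34, Flt3, Procr and Mecom did not exceed 0.1271 FPKM. Of 6 tested monocyte and macrophage markers 0 passed, with 1 higher and 1 lower at an unadjusted p under 0.05. Their log2 fold changes were positive for 2 and negative for 4, with a median of -0.13 against -0.06 over all genes. The summed FPKM of that list was 2449 to 2972 in knockout libraries and 1482 to 2432 in controls, most of it Ly6c2. Ccr2, a monocyte chemokine receptor gene, was at 124, 65.0 and 82.4 FPKM in the knockout clones, against 191, 299.9 and 551 FPKM in the control clones (adjusted p = 0.0520). Of the eosinophil markers, Epx did not exceed 0.0121 FPKM and Il5ra was listed at 0, while Siglecf, also a gene of other myeloid cells, was at 2.97, 2.59 and 3.44 FPKM in the knockout clones, against 0.900, 1.54 and 1.36 FPKM in the control clones, without overlap (log2 fold change 0.82, limma adjusted p = 0.0744). The other eosinophil marker tested, Ear2, had a log2 fold change of -0.53 (limma adjusted p = 0.521), with overlapping groups. It was at 0.765, 0.467 and 1.53 FPKM in the knockout clones, against 0.0694, 2.38 and 4.49 FPKM in the control clones. Of the 2 eosinophil markers tested 0 passed, and the list summed to 3.24 to 5.14 FPKM in knockout libraries and 1.11 to 6.12 FPKM in controls. Of the 2 erythroid and megakaryocyte markers tested 0 passed, and that list summed to 4.50 to 5.71 FPKM in knockout libraries and 0.895 to 4.55 FPKM in controls. Their part in the results above was not tested.

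For each gene that rose, the 3 tested genes with the most similar log2(FPKM + 1) over the 6 libraries were looked up, with Pearson's r as the measure of likeness. These values include the difference between the groups and were picked from 9830 genes, so they describe likeness only. Ly6g was most like Abtb1, Tmem222 and Prss22 (r 0.998, 0.995 and 0.995). Retnlg was most like the nuclear receptor gene Nr4a1, Pear1 and the proton pump gene Atp6v1d (r 0.992, 0.991 and 0.990). Lcn2 was most like Flot1, the chemokine gene Ccl4 and Srxn1 (r 0.996, 0.996 and 0.996). Of these 9, Prss22, Pear1 and Ccl4 rose (limma adjusted p = 0.0444, 0.0446 and 0.0215).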

How the data were processed

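RNA-seq of 6 libraries was used, 3 with the Clec12a guide and 3 with the lacZ guide, grouped by sample title. The authors deposited 1 table of FPKM with gene symbols. The tools FastQC and STAR 2.5.2b and the genome mm10 are named, per the submitters' processing notes, while counting, annotation, strand use and filters were not given in the sources used here. Because FPKM is relative to the whole library, a few abundant genes can move all others.

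Symbols were matched to GENCODE M21 (GRCm38), 21414 by symbol and 75 by synonym, for coordinates, length and GC content. Depth was estimated from low values of genes with 1 transcript: 58.9% to 69.7% of values up to 5 fragments lay within 0.1 of a whole number, where 20% is the chance share. Fragment numbers are therefore estimates, and no count test was run.

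The test was limma 3.58.1 in R 4.3.3 (intensity trend, two-sided, Benjamini-Hochberg) on log2(FPKM + 1) of all 9830 genes with 1 FPKM in 3 libraries. Exact permutation tests cannot go below p = 0.1 here. The script was tested on simulated data, where 0%, 14.9% and 78.8% of genes changed 1.5-fold, 2-fold and 4-fold passed. A gene that did not pass may therefore still differ between the groups. P-values measure the spread between these clones. The text names all 10 genes and any list gene past the threshold, and otherwise could name the 4 most abundant of a list, not all of which are given. Other names, such as single markers, receptors and inhibitors, were chosen after their values were seen. Python 3.11.15, pandas 2.3.3, numpy 2.4.6 and matplotlib 3.10.9 were used. Of the genes listed, Cyba, Irf8 and Mmp1a were not analysed here, and 1 late neutrophil gene more is not reported here. The genes and lists were chosen with earlier results of these data known. Alternatives were other pseudocounts, filters, scalings, limma priors, array weights, a length and GC correction, a threshold of 0.1, and leaving out each library.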

Additional observations from a re-analysis of the deposited data

How the results depend on the processing

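Ly6g, Retnlg and Lcn2 kept a positive log2 fold change under all 18 alternatives (3.03 to 4.02, 2.71 to 4.16 and 2.30 to 3.04). The alternatives with other filters, other limma priors or a threshold of 0.1 cannot change a fold change, so they are no check on its sign. Of the 10 genes, 3 passed in the main test, 0 without a filter on low values (adjusted p 0.105, 0.0636 and 0.0871 for the 3), 6 with array weights, where Ltf, Cd177 and Chil3 fell but 42.3% of all genes passed, and 1 to 3 with each library left out. Ngp reversed to -1.08 and Mmp8 to 0.23 with array weights, and Mmp8 ranged from -0.98 to 0.20 with each library left out; the cause was not tested. Among all genes 187 passed, against 122 with a pseudocount of 0.01, 23 without a filter, 97 where the mean was 5 FPKM or more, 120 with equal totals, 4154 with array weights, 1106 at an adjusted p under 0.1 and 20 to 197 with each library left out. Of the 34 other late neutrophil genes 0 passed in the main test, and 15 passed with array weights, beside 42.3% of all genes. After the length and GC correction 1 passed (Clec4e), and 0 to 4 passed with each library left out. At an adjusted p under 0.1, 8 passed, beside 11.3% of all genes. With equal totals the median over all genes was -0.24 in place of -0.06, with 71 rises and 49 falls against 136 and 51, and Ly6g, Retnlg and Lcn2 still passed. Exact permutation p was at its smallest, which means no overlap, for 3 of the 10 genes beside 36.3% of all genes, and with equal totals for 4 beside 40.4%. The gene that joined the 3 was Chil3, with every knockout library below every control (log2 fold change -0.66, limma adjusted p = 0.177). No paired analysis was possible because knockout and control replicates share no number. Depth limits Camp and Retnlg most, at an estimated 12 to 44 fragments in controls.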
